A study of Mus musculus with 2 samples.

Results

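Expression of 9 genes that restrain signaling through the kinase ERK was followed across 8 mouse tumors: the dual specificity phosphatases Dusp4, Dusp5 and Dusp6, the Spred genes Spred1, Spred2 and Spred3, and the Sprouty genes Spry1, Spry2 and Spry4. They were chosen by symbol, and each of the 9 names matched 1 of the 19059 features of the deposited count matrices. The tumors came from the dFLEx CDS mouse, in which Cre and FLPE plasmids electroporated into hind limb muscle switch on the CIC::DUX4 fusion gene, so the tumor cells sit among muscle, stromal and immune cells of the host. The untreated group (genotype dFLEx CDS +/- per the labels) held 4 tumors, and the Minnelide group held 4 tumors of mice given 0.42 mg/kg for 21 days, with no genotype tag of its own. The active form of Minnelide, a water-soluble prodrug, is the transcription inhibitor triptolide. The labels give no age for the mice and do not say whether the untreated mice received vehicle.

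ERK is the last kinase of the cascade that runs from receptor tyrosine kinases through Ras, RAF and MEK. When ERK is active it induces its own brakes. DUSP phosphatases remove the activating phosphates from ERK, SPRED proteins bring the Ras inactivator neurofibromin to the membrane, and Sprouty proteins block the path between receptor and RAF. The repressor CIC keeps many of these genes silent until ERK inactivates it, and CIC::DUX4 carries the DNA-binding part of CIC fused to an activating domain, which turns CIC targets on.

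The genes lie on different chromosomes of the GRCm39 assembly, the build named mm39 in the submitters' processing notes. Dusp4 (ENSMUSG00000031530) spans chromosome 8, 35274442 to 35287048, Dusp5 (ENSMUSG00000034765) chromosome 19, 53517532 to 53530862, and Dusp6 (ENSMUSG00000019960) chromosome 10, 99086564 to 99103361. Spred1 (ENSMUSG00000027351) spans chromosome 2, 116951524 to 117018277, Spred2 (ENSMUSG00000045671) chromosome 11, 19874355 to 19974442, and Spred3 (ENSMUSG00000037239) chromosome 7, 28857984 to 28869836. Spry1 (ENSMUSG00000037211) spans chromosome 3, 37693897 to 37698755, Spry2 (ENSMUSG00000022114) chromosome 14, 106128766 to 106136446, and Spry4 (ENSMUSG00000024427) chromosome 18, 38719300 to 38736025. Spred3 overlaps the protein-coding gene Ggn on the opposite strand, so reads in the shared stretch are uncertain if strand was not used in counting, and 7 of the other members overlap noncoding RNA genes only or a gene of unsettled type. Because intronic reads were counted and the spans run from 4859 bases (Spry1) to 100088 bases (Spred2), levels are compared below within a gene and never between genes.

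The tumors held 18487409 to 73211599 UMIs (unique molecules counted) each, and 59907 of 72338 deposited nuclei were retained. Levels are given as UMIs per 1000000 UMIs (CPM) summed over the nuclei of a tumor, or over 1 class of them. Nuclei were grouped into 34 clusters without use of the members, and 14 clusters with 36664 nuclei were called tumor-like. Each cluster took the name of the class whose markers were raised most on average, with at least 3 raised. The 8 tumor markers were Etv1, Etv4, Etv5, Shc3, Shc4, Vgf, Igf2bp3 and Zic1, and each tumor-like cluster raised at least 7 of them, as did 1 myocyte-like, 1 macrophage-like and 3 unnamed clusters. In 13 of the 14 tumor-like clusters over 90% of the nuclei came from 1 tumor. All 14 also raised at least 3 markers of a further class. The other classes were osteoclast-like (768 nuclei), pericyte-like (984), macrophage-like (1967), endothelial-like (3169), fibroblast-like (6815) and myocyte-like (8625), and 915 nuclei stayed unnamed. Untreated tumor 1 and Minnelide tumor 2 stood apart, with 36.7% and 50.6% myocyte-like nuclei against 0.834% to 7.17% in the other 6, and within tumor-like nuclei untreated tumor 1 also had the highest summed markers of endothelial cells (2764 CPM against 384 to 658 CPM in the others), myocytes (6768 against 436 to 5813 CPM) and macrophages (642 against 88.6 to 294 CPM). Each of 4 pairs of tumors, 1 untreated and 1 Minnelide, had the same 2 bases at a fixed place in all nucleus barcodes (a tag) and shared between 49 and 132 whole barcodes, and leaving out such nuclei changed no call and no direction of a member. Because tumors with the same tag cannot be told apart within a run, the 8 tumors need at least 2 runs. The labels name none, so run and treatment cannot be told apart, and p-values measure the spread between these tumors.

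The 4 octamers that CIC binds, TGAATGAA, TCAATGAA, TGAATGGA and TCAATGGA, were searched on both strands of the 250 bases before and 50 bases after the start of each gene's Ensembl canonical transcript, which for 5 members lies inside the gene span given above. A match was found for 4 of the 9 members (44.4%), against 659 of 19043 such starts (3.46%). These are descriptions of sequence and no evidence of binding. Spred3 held TGAATGAA on its own strand beginning 10 bases before its start, Dusp4 held TGAATGGA on the opposite strand at 90 bases before, Dusp6 held TCAATGGA on the opposite strand at positions 2 and 27 of its first exon, and Spry4 held TGAATGGA on the opposite strand at 213 bases before. The remaining 5 windows (Dusp5, Spred1, Spred2, Spry1 and Spry2) held none of these letters, which says nothing about sites elsewhere. Upstream windows of Spred3 (chr7:28868073-28868322, minus strand) and Dusp4 (chr8:35274192-35274441, plus strand), and 30 bases around the first Dusp6 match (chr10:99099058-99099087, plus strand), are shown 5′ to 3′ on the gene's strand of GRCm39, since they carry the octamers; capitals mark the octamer or its reverse complement.
Spred3: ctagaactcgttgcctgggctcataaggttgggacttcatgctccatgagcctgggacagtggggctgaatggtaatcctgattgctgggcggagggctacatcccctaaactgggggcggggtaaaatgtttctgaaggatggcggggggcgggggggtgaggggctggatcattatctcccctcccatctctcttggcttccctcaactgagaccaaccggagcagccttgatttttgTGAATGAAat
Dusp4: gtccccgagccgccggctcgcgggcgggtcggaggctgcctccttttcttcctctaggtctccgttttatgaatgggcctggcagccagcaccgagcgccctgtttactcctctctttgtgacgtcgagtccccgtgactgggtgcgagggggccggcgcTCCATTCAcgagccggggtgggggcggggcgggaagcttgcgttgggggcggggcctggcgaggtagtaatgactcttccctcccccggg
Dusp6: gagagaatgtaTCCATTGAgacgctggctg

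In tumor-like nuclei all 9 brakes were detected in every tumor, and they differed in how evenly. Spred1 varied least between the 8 tumors, with a coefficient of variation of 9.54%, followed by Spred3 (12.3%) and Dusp6 (17.5%). Dusp5 (49.8%), Spry1 (45.2%) and Dusp4 (41.9%) varied most. The lowest value of Spred2, Spred3 and Spry4 came from untreated tumor 1, and the lowest of Dusp4, Dusp6 and Spred1 from Minnelide tumor 2, the tumors rich in myocyte-like nuclei. The part of these nuclei in the members' values was not tested. Untreated tumor 1 also had the highest summed endothelial markers within its tumor-like nuclei. The study reports tumor cells with endothelial features and lower CIC::DUX4 activity in a single dFLEx CDS tumor. Dusp4, Spred1 and Spred2 are among the genes of its activity score. Whether untreated tumor 1 is that tumor was not tested.

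Among the phosphatases, Dusp4, which acts on nuclear ERK and other MAP kinases, had levels of 91.6, 253, 217 and 347 CPM in untreated tumors 1 to 4 and of 249, 83.1, 262 and 195 CPM in Minnelide tumors 1 to 4. One tumor in each group was far below the rest, and the groups overlapped. Dusp6, the cytoplasmic ERK phosphatase, stood at 89.9, 127, 109.6 and 99.8 CPM in the untreated and 136, 83.7, 126 and 128 CPM in the Minnelide tumors. These groups also overlapped, and 3 of 4 Minnelide values lay near the highest untreated value. Dusp5, a nuclear ERK phosphatase, was sparse, with 25 to 551 UMIs per tumor. Its levels were 15.7, 7.63, 7.94 and 14.2 CPM in the untreated and 4.39, 5.03, 5.52 and 7.44 CPM in the Minnelide tumors, so that every Minnelide tumor lay below every untreated tumor.

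Of the Spred genes, Spred1 and Spred3 were the most even of all members. Spred2 had a coefficient of variation of 24.3%, near that of Spry4 (24.9%). Spred1 had 970.0, 1042, 982 and 945 CPM in the untreated and 1182, 872, 1082 and 1084 CPM in the Minnelide tumors. Spred2 had 576, 1440.1, 1675 and 1414 CPM in the untreated and 1384, 1296, 1315 and 1391 CPM in the Minnelide tumors. Untreated tumor 1 was below the other 7 by more than their whole range. Spred3 had 211, 277, 297 and 317 CPM in the untreated and 281, 256, 287 and 314 CPM in the Minnelide tumors, again with untreated tumor 1 at the bottom. The groups overlapped for all 3.

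For the Sprouty genes, Spry1 had 31.2, 17.3, 9.56 and 16.3 CPM in the untreated and 10.3, 11.5, 11.8 and 16.1 CPM in the Minnelide tumors. Its highest value belonged to untreated tumor 1, as did that of Dusp5. Spry2 had 85.0, 64.6, 55.9 and 92.6 CPM in the untreated tumors and 52.7, 46.7, 46.5 and 40.7 CPM in the Minnelide tumors, and the groups did not overlap. Spry4 had 112, 246, 221 and 219 CPM in the untreated and 175, 133, 222 and 213 CPM in the Minnelide tumors, with overlap.

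**Figure D1:**
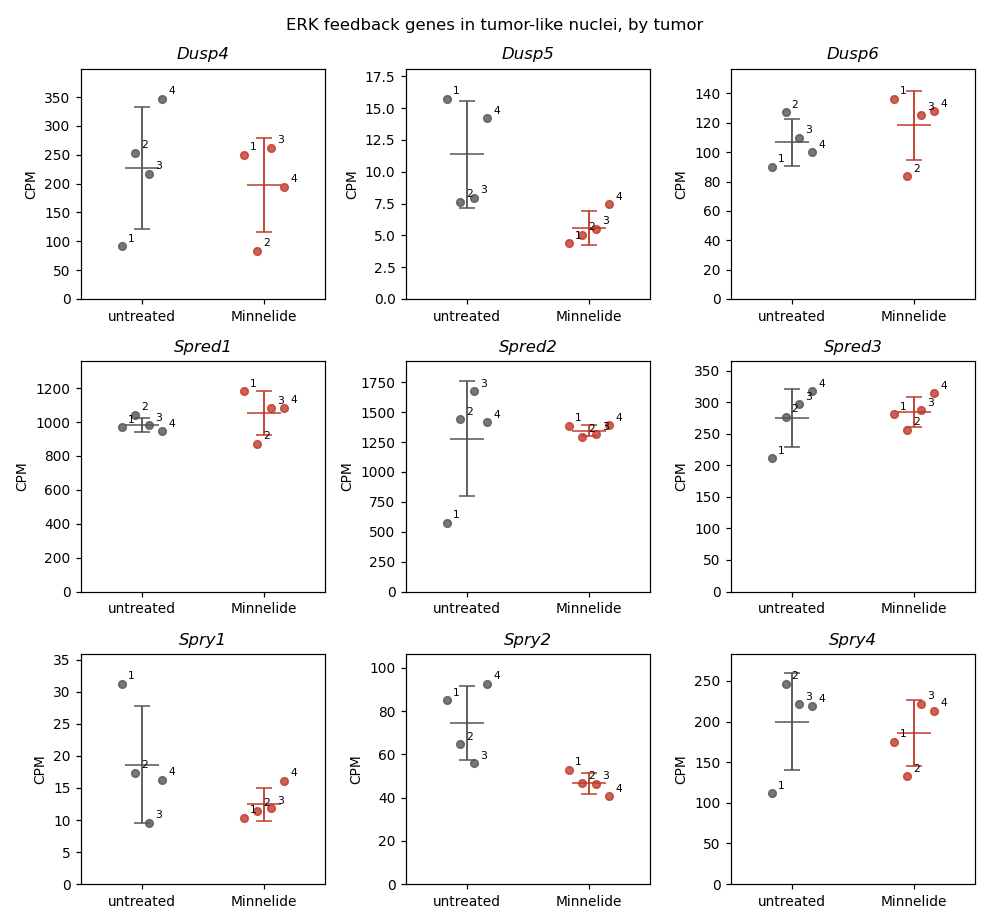
Level of each gene in tumor-like nuclei (CPM, vertical axes from 0) in the 4 untreated (grey) and 4 Minnelide (red) tumors; points are tumors with their numbers, bars the mean and SD. The Minnelide points lie below all untreated points for Dusp5 and Spry2, and untreated tumor 1 is low for Dusp4, Spred2, Spred3 and Spry4.

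Clusters within a tumor showed the same low levels in untreated tumor 1, with an exception. Its 2 large tumor-like clusters, of 1713 and 1591 nuclei, had Spred2 at 559 and 613 CPM, Spred3 at 207 CPM in both and Dusp4 at 85.0 and 111 CPM. A small cluster of 109 of its nuclei had Spred2 at 1046 CPM, Spred3 at 424 CPM, Dusp4 at 223 CPM and Spry4 at 231 CPM. The large clusters raised 7 and 8 of 8 endothelial markers, 0 and 10 of 10 myocyte markers and 6 and 3 of 9 macrophage markers, and the small cluster 3, 1 and 1, and their part in these levels was not tested. In untreated tumor 4 the 2 clusters went different ways by gene. Spred2 was 924 CPM in the cluster with a median of 756 UMIs and 1845 CPM in the cluster with a median of 1882.5 UMIs, whereas Dusp6 was 119.6 and 82.6 CPM. The shallower cluster raised 8 of 10 myocyte markers and the deeper one 4. Dusp5 and Spry2 were also higher in the shallower cluster, at 16.9 and 108 CPM against 11.3 and 78.6 CPM. Spred1, Spred3 and Spry1 were higher there too, while Dusp4 and Spry4 were lower, like Spred2. These are sums of nuclei of single tumors and were not tested.

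Across classes of nuclei the 9 genes fell into 2 kinds. Tumor-like nuclei had the highest mean level of Dusp4, Dusp6, Spred2, Spred3, Spry2 and Spry4, and other classes led for Dusp5, Spred1 and Spry1. Clusters were made from the same nuclei, so these orders are given without a test, as means over tumors with at least 50 nuclei of a class. The tumor markers Etv1, Etv4, Etv5, Shc3, Shc4 and Vgf stand in the study's CIC::DUX4 activity score beside Dusp4, Spred1 and Spred2. Levels of these members in a class named by such markers are therefore not independent of its name.

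The 6 genes led by tumor-like nuclei differed in how far they stood out. Spred2 averaged 1311 ± 319 CPM (SD, n = 8) in tumor-like nuclei and 704 ± 265 CPM (SD, n = 8) in macrophage-like nuclei, the next class, and was higher in 8 of 8 tumors. Spred3 averaged 280.0 ± 34.4 CPM (SD, n = 8) against 162 ± 55.6 CPM (SD, n = 8) in macrophage-like nuclei, also higher in 8 of 8. The mean in tumor-like nuclei was 2.68 times that in fibroblast-like nuclei for Spred2 and 2.59 times for Spred3. Dusp4 averaged 212 ± 88.9 CPM (SD, n = 8) and exceeded the osteoclast-like level of 144 ± 61.3 CPM (SD, n = 7) in 7 of 7 tumors. Spry4 averaged 193 ± 48.0 CPM (SD, n = 8) against 150.2 ± 33.7 CPM (SD, n = 7) in pericyte-like nuclei, and was higher in 6 of 7. Dusp6 averaged 112 ± 19.7 CPM (SD, n = 8) against 88.3 ± 27.9 CPM (SD, n = 8) in endothelial-like nuclei, a small step that was seen in 8 of 8 tumors. Spry2 averaged 60.6 ± 18.9 CPM (SD, n = 8) against 52.3 ± 13.3 CPM (SD, n = 7) in pericyte-like nuclei and was higher in 5 of 7, and this difference was within its spread over tumors. Below the leading class most neighbors in these orders did not differ beyond their spread. The exceptions were Spred2 between endothelial-like, osteoclast-like and fibroblast-like nuclei, Spred3 between pericyte-like and fibroblast-like nuclei, and Spry4 between pericyte-like and endothelial-like nuclei.

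Spred1 was highest in osteoclast-like nuclei, a class of bone-resorbing cells named here from Acp5, Ctsk, Atp6v0d2, Ocstamp, Dcstamp and Mmp9, all raised in its single cluster. Its level there was 1101, 1737, 2021 and 1926 CPM in untreated tumors 1 to 4 and 1135, 1596 and 2254 CPM in Minnelide tumors 1, 3 and 4, whereas Minnelide tumor 2 had too few such nuclei. The mean of 1682 ± 438 CPM (SD, n = 7) exceeded the tumor-like mean of 1019.8 ± 97.3 CPM (SD, n = 8), with a higher value in 6 of 7 tumors, all but Minnelide tumor 1. Endothelial-like nuclei came next at 760.4 ± 207 CPM (SD, n = 8), and myocyte-like nuclei were lowest at 425 ± 172 CPM (SD, n = 8).

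Dusp5 was highest in endothelial-like nuclei, at 26.1 ± 12.8 CPM (SD, n = 8), above fibroblast-like nuclei at 17.7 ± 10.9 CPM (SD, n = 8) in 7 of 8 tumors. Tumor-like nuclei had the lowest mean, at 8.48 ± 4.22 CPM (SD, n = 8), and exceeded the endothelial-like level in 1 tumor, untreated tumor 1. From fibroblast-like down to tumor-like nuclei, neighbors in this order did not differ beyond their spread. The tumor-like level exceeded the pericyte-like level in 2 of 7 tumors. Spry1 was highest in pericyte-like nuclei, a class of contractile cells around vessels, at 43.7 ± 28.9 CPM (SD, n = 7), and exceeded the tumor-like level in 7 of 7 tumors. The single cluster of this class raised 6 of 7 pericyte markers. Its leading genes included the smooth muscle genes Myh11 and Acta2 beside Notch3, so pericytes were not separated from vascular smooth muscle here. The mean tumor-like level of Spry1 was 15.5 ± 7.01 CPM (SD, n = 8), and only macrophage-like nuclei, at 11.01 ± 6.37 CPM (SD, n = 8), were lower.

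**Figure D2:**
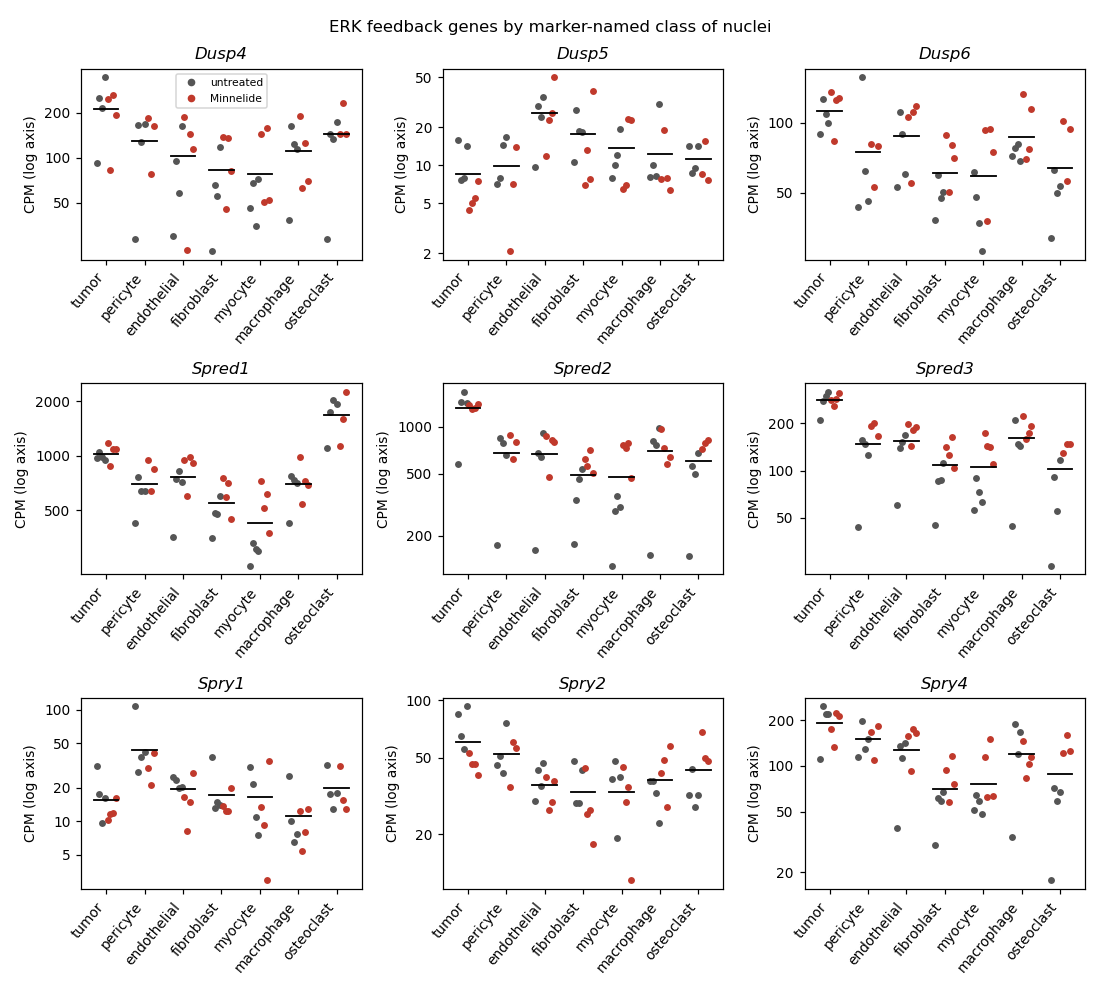
Level of each gene (CPM, log axes) in 7 marker-named classes of nuclei; each point is a tumor with at least 50 nuclei of that class, grey untreated and red Minnelide, and black lines are means over tumors. Spred2 and Spred3 stand out in tumor-like nuclei, Spred1 in osteoclast-like, Dusp5 in endothelial-like and Spry1 in pericyte-like nuclei.

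Tumor markers were present in every other class, and their level moved with that of several members. The summed level of the 8 tumor markers in fibroblast-like nuclei was 18.7% to 55.8% of that in tumor-like nuclei of the same tumor, and none of the 8 was at 0. Spred2 (23.5% to 54.0%), Spred3 (21.3% to 56.7%), Spry4 (25.1% to 53.8%) and Dusp4 (25.3% to 55.5%) had relative levels in the same range. Dusp6 (42.7% to 65.3%), Spred1 (36.0% to 67.6%) and Spry2 (44.0% to 84.4%) ranged higher, and each passed all 8 markers in 1 of 8 tumors. In contrast Spry1 in fibroblast-like nuclei stood at 75.5% to 156% of its tumor-like level, above the relative level of each of the 8 tumor markers in 8 of 8 tumors, and Dusp5 did so in 7 of 8. Spry1 in pericyte-like nuclei (159% to 391%) passed each tumor marker in 7 of 7 tumors. Spred1 in osteoclast-like nuclei, at 96.1% to 208% of its tumor-like level, passed each of the 8 in 6 of 7, while the summed tumor markers were at 13.1% to 55.6%. Dusp4 and Spry2 passed each of the 8 there in 5 of 7 tumors. In endothelial-like nuclei Dusp6 and Spred1 did so in 5 of 8. How much of the members' levels outside tumor-like nuclei came with tumor RNA was not tested.

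In single nuclei the levels translated into detection as follows, with every nucleus brought to 1000 UMIs and shallower nuclei left out (up to 5765 of 8352 in untreated tumor 4). Spred2 was seen in 42.6% to 77.6% of tumor-like nuclei (median over tumors 70.8%) and in 11.8% to 42.2% of myocyte-like nuclei (7 tumors). Without thinning the ranges were 59.0% to 94.9% and 18.7% to 73.6%, at median depths of 807.5 to 4984 and 1301 to 4570.5 UMIs. Spred1 was seen in 57.6% to 68.1% of tumor-like and 57.8% to 85.6% of osteoclast-like nuclei, and without thinning in 59.3% to 95.9% and in at least 87.0%, at osteoclast-like median depths of 2383 to 6040.5 UMIs. Dusp5 was seen in 0.473% to 1.42% of tumor-like nuclei, against 1.47% to 12.2% without thinning. No class here is known to lack these genes, so no share marks the background of free RNA.

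The main comparison asked whether the brakes differed between Minnelide and untreated tumors, with each tumor as 1 replicate (n = 4 per group) and edgeR's quasi-likelihood test on summed counts. Over all retained nuclei edgeR called 0 of 13811 genes (0%) at an adjusted p under 0.05. Before adjustment 1376 (9.96%) were under that threshold, and DESeq2 called 181 (1.31%) after adjustment, while 0 of the 9 members were called by either tool. None of the 9 had an unadjusted p under 0.05 in this sum. For 6 members the log2 fold change was above 0, as it was for 50.7% of all genes, and in all 9 the groups overlapped, where 7.58% of genes did not. In these sums fewer nuclei of a class and less RNA per nucleus cannot be told apart.

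In tumor-like nuclei 0 of 12851 genes passed edgeR's adjusted threshold. There were 1216 (9.46%) below it before adjustment, while DESeq2 called 109 (0.848%), none of them a member. Of the 9 members, 2 (Spry2 and Dusp5) had an unadjusted p under 0.05, both lower with Minnelide, where 7.21% of all genes were lower at that threshold. The same 2 did not overlap between the groups, against 5.84% of all genes that did not overlap and were lower. Spry2 averaged 74.5 ± 17.1 CPM without and 46.6 ± 4.93 CPM with Minnelide (SD, n = 4 each), a log2 fold change of -0.54 ± 0.16 (SE) with an edgeR adjusted p of 0.517 and a DESeq2 adjusted p of 0.155. Dusp5 averaged 11.4 ± 4.197 CPM without and 5.59 ± 1.32 CPM with Minnelide (SD, n = 4 each), a log2 fold change of -0.87 ± 0.29 (SE) with an edgeR adjusted p of 0.517 and a DESeq2 adjusted p of 0.193. Neither passed the test. Their log2 fold changes stayed below 0 in every alternative fit, from -0.62 to -0.40 for Spry2 and from -1.05 to -0.69 for Dusp5, with edgeR adjusted p from 0.324 to 0.793 and from 0.407 to 0.793. Summed myocyte markers in the same nuclei were 6768, 1582, 2613 and 5115 CPM in the untreated and 851, 5813, 436 and 767 CPM in the Minnelide tumors. Summed endothelial markers were 2764 CPM in untreated tumor 1, where Dusp5 was highest, and 384 to 658 CPM in the others. The part of either marker set in both genes' values was not tested. The other 7 members had log2 fold changes between -0.41 (Spry1) and 0.27 (Dusp6). The members' median log2 fold change was -0.00, as was that of all genes tested. Summed tumor markers averaged 16193 ± 2341 CPM without and 18548 ± 2921 CPM with Minnelide (SD, n = 4 each), with overlap.

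Fibroblast-like nuclei gave another picture by gene. Of the 9 members 6 had a positive log2 fold change, as did 49.1% of all genes, and the median over members was 0.62 against -0.01 over all genes. After adjustment 0 of 11568 genes were called by edgeR and 59 (0.51%) by DESeq2, none of them a member, and 967 (8.36%) had p under 0.05 before adjustment. In all 9 members the groups overlapped, where 5.68% of genes did not. Dusp6 and Spred3 had an unadjusted p under 0.05, both higher, where 4.1% of all genes were. Dusp6 was 38.4, 59.7, 47.4 and 50.6 CPM in the untreated and 89.0, 50.7, 80.1 and 70.5 CPM in the Minnelide tumors, a log2 fold change of 0.62 ± 0.22 (SE) with an edgeR adjusted p of 0.577. Spred3 was 45.0, 86.2, 87.0 and 111 CPM and 142, 126, 163 and 104 CPM, a log2 fold change of 0.75 ± 0.29 (SE) with an edgeR adjusted p of 0.585. For both genes 1 Minnelide tumor lay within the untreated range. Spry4 (0.71 ± 0.31 SE) and Spred2 (0.70 ± 0.33 SE) had log2 fold changes of similar size with edgeR adjusted p of 0.597 and 0.609. These values depended on how nuclei were named: with clusters that raised markers of a further class left out, the log2 fold change was 0.22 for Dusp6, 0.06 for Spred3, 0.16 for Spred2 and -0.00 for Spry4, with edgeR adjusted p from 0.905 to 1.000. Beside these values, the 8 tumor markers summed to 2390 to 5612 CPM in the untreated and 5747 to 11344 CPM in the Minnelide fibroblast-like nuclei, without overlap. All 8 had positive log2 fold changes there, with a median of 1.06, and 4 had an unadjusted p under 0.05. Their part in the members' values was not tested.

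**Figure D3:**
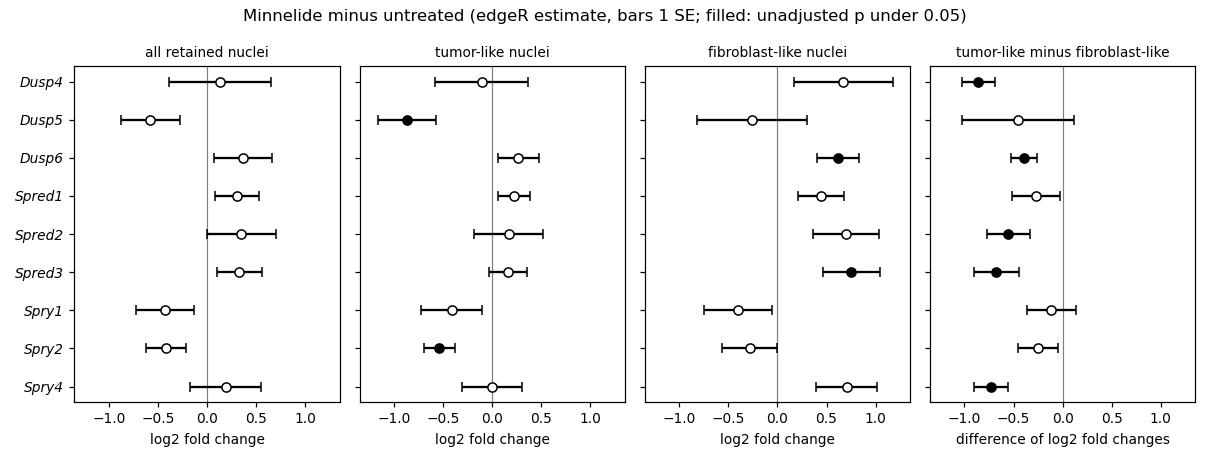
edgeR log2 fold changes of the 9 genes, Minnelide minus untreated, with 1 SE, in 3 sets of nuclei, and in the last panel the tumor-like minus the fibroblast-like fold change; filled points have an unadjusted p under 0.05 and no point passes adjustment. Spry2 and Dusp5 are filled in tumor-like nuclei, and all 9 points of the last panel lie left of 0.

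The difference between the 2 classes was tested directly, tumor by tumor, as an interaction. All 9 members had a lower log2 fold change in tumor-like than in fibroblast-like nuclei, where 38.3% of all genes had a higher one. For 5 members the unadjusted p was under 0.05, all in that direction, against 5.6% of 12578 genes, and edgeR called 0 members and 0 genes after adjustment, whereas 854 genes (6.79%) were below 0.05 before it. The difference was -0.86 ± 0.17 (SE) for Dusp4 with an edgeR adjusted p of 0.492, and -0.73 ± 0.18 (SE) for Spry4 with an edgeR adjusted p of 0.577. Spred3 (-0.68 ± 0.23 SE), Spred2 (-0.55 ± 0.22 SE) and Dusp6 (-0.40 ± 0.13 SE) followed, with edgeR adjusted p of 0.685, 0.707 and 0.685. DESeq2 called 23 genes (0.183%) including Dusp4, at an adjusted p of 0.0131, and edgeR adjusted p for Dusp4 ranged from 0.258 to 0.947 over its other fits. The common direction did not hold in every fit. Without untreated tumor 1 the difference for Dusp5 turned from -0.46 to 0.08, and without untreated tumor 2 that for Spry1 turned to 0.0459. Without both myocyte-rich tumors it was 0.14 for Dusp5 and 0.0216 for Spred1.

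The tumor markers moved with this contrast as well. All 8 had a lower log2 fold change in tumor-like nuclei, with a median difference of -0.83 and a range of -0.92 to -0.54, and 6 of the 8 had an unadjusted p under 0.05. Within tumors, fibroblast-like Dusp4 was 25.3% to 34.0% of the tumor-like level in the untreated and 42.1% to 55.5% in the Minnelide group, and the summed tumor markers were 18.7% to 32.7% and 33.1% to 55.8%. Spry4 gave 25.1% to 30.8% and 35.5% to 53.8%, and Dusp6 42.7% to 50.7% and 55.1% to 65.3%. For these 3 of 9 genes every Minnelide tumor lay above every untreated tumor, as did the markers, against 3.34% of 12509 genes, and the other 6 members overlapped. Whether tumor RNA in fibroblast-like nuclei accounts for the members' values was not tested.

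**Figure D4:**
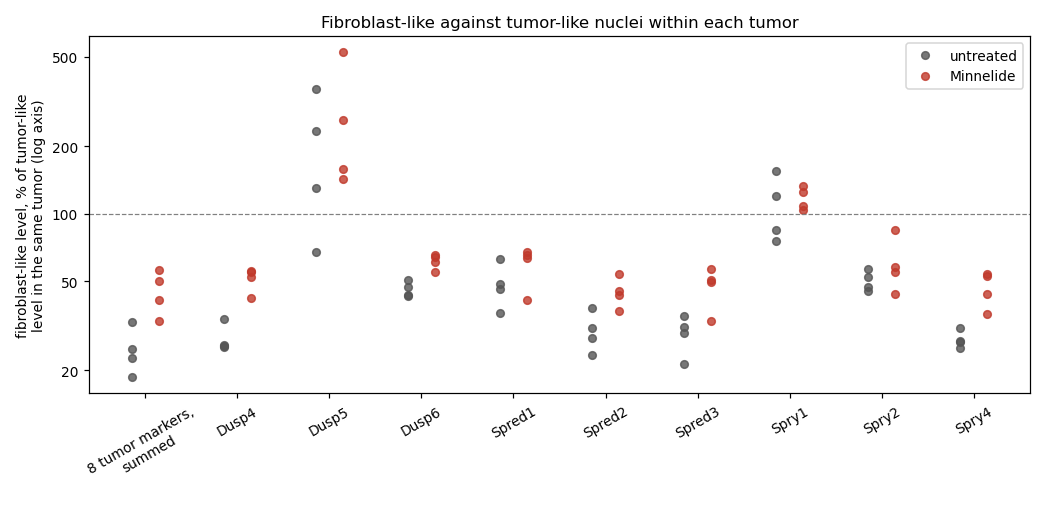
Level in fibroblast-like nuclei as a percent of the level in tumor-like nuclei of the same tumor (log axis), for the 8 tumor markers summed and for each gene; points are tumors, grey untreated and red Minnelide, and the dashed line marks equal levels. The marker sum runs from 18.7% to 32.7% in untreated and 33.1% to 55.8% in Minnelide tumors, and Dusp4, Dusp6 and Spry4 are likewise apart, while Dusp5 and Spry1 lie mostly above the dashed line.

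The remaining classes are given as values. In myocyte-like nuclei Spred2 was 129, 289, 361 and 306 CPM in the untreated and 759.7, 733, 783 and 472 CPM in the Minnelide tumors. Spred1 ranged from 246 to 329 CPM and from 374 to 727 CPM, and Spred3 from 56.1 to 89.6 CPM and from 109 to 172 CPM. These 3 of 9 members did not overlap and were higher with Minnelide, against 4.49% of genes with at least 50 UMIs in this class, a limit that all 9 members passed. Of the 6 myocyte-like clusters 4 drew over 90% of their nuclei from untreated tumor 1 or Minnelide tumor 2. Minnelide tumors 3 and 4 had only 71 and 55 such nuclei, and the summed tumor markers in them moved the same way, from 23.9% to 34.2% of the tumor-like level in the untreated to 36.0% to 60.5% in the Minnelide tumors. In osteoclast-like nuclei Spred2, Spred3, Spry2 and Spry4 were higher without overlap in 3 Minnelide tumors (4 of the 8 members with at least 50 UMIs, against 7.42% of such genes), on 50 to 85 nuclei per Minnelide tumor, with tumor markers at 13.1% to 29.7% and 51.3% to 55.6%. Spred1, the gene highest in that class, overlapped there. In pericyte-like nuclei Spred3 did not overlap and was higher (1 of the 8 with at least 50 UMIs, against 3.09% of such genes). Dusp5 was below that limit in both classes. In endothelial-like and macrophage-like nuclei 0 of 9 members were higher without overlap, where 2.14% and 0.969% of genes with at least 50 UMIs were. No fit was made for these classes.

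Minnelide tumors 1 and 2 carry the word responder and tumors 3 and 4 the word nonresponder in the names of their matrices. The labels do not hold these words, so the values are given side by side with no test. In tumor-like nuclei Spry4 was 175 and 133 CPM in the 2 tumors named responder and 222 and 213 CPM in those named nonresponder. Spred3 was 281 and 256 against 287 and 314 CPM, Dusp5 4.39 and 5.03 against 5.52 and 7.44 CPM, and Spry1 10.3 and 11.5 against 11.8 and 16.1 CPM. Spry2 went the other way, at 52.7 and 46.7 against 46.5 and 40.7 CPM. The pairs were apart for these 5 of 9 members, against 29.1% of all genes in tumor-like nuclei. They were apart for 3 of 9 over all retained nuclei, against 30.1% of genes, and for 0 of 9 in fibroblast-like nuclei, against 25.8%. Minnelide tumor 2 held 50.6% myocyte-like nuclei.

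The rest of the pathway was read from 4 lists. In tumor-like nuclei 7.21% of all genes were lower at an unadjusted p under 0.05, a share to set beside the counts of lower genes below. Of the ERK cascade itself, from receptors to ERK and its RSK substrates, 29 of 32 genes were tested in tumor-like nuclei, and 0 were higher and 2 lower at an unadjusted p under 0.05, with a median log2 fold change of 0.09. The 2 were receptor tyrosine kinases, Kit (161 ± 173 and 39.4 ± 23.1 CPM, SD, n = 4) and Met (45.2 ± 72.3 and 4.63 ± 2.84 CPM, SD, n = 4), whose untreated values reached from 62.9 to 419.7 CPM and from 7.46 to 154 CPM. Their Minnelide values reached from 20.9 to 72.1 CPM and from 2.86 to 8.85 CPM, so the groups overlapped for both. Both had an edgeR adjusted p of 0.517. Of 18 tested genes of other ERK brakes, 0 were higher and 2 lower. Errfi1, which inhibits the EGF receptor, stood at 128 ± 81.2 against 39.02 ± 18.95 CPM (SD, n = 4), a log2 fold change of -1.54 ± 0.45 (SE) with an edgeR adjusted p of 0.517. Dusp8, a phosphatase of stress kinases, was barely detected, at 2.30 ± 1.31 and 0.946 ± 0.0816 CPM (SD, n = 4).

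Among 15 genes induced by ERK or repressed by CIC, 0 were higher and 2 lower in tumor-like nuclei (against 7.21% of all genes lower), with a median log2 fold change of -0.16. These were the transcription factors Myc, at 19.6 ± 6.09 and 11.1 ± 2.65 CPM (SD, n = 4), and Egr1, at 16.5 ± 4.43 and 9.22 ± 3.92 CPM (SD, n = 4), with edgeR adjusted p of 0.517 and 0.524. This list shares Etv1, Etv4 and Etv5 with the tumor markers. Of Cic and its partners Atxn1 and Atxn1l, 2 of 3 genes were tested and 0 had an unadjusted p under 0.05. Over all retained nuclei the same lists gave 1, 1, 1 and 0 genes at that threshold, namely Kit, Errfi1 and Egr1, each lower. Of all genes 9.96% were under it there, in either direction. Of all genes in fibroblast-like nuclei, 4.1% were higher at the same unadjusted threshold and 8.36% were under it in either direction. There the cascade had 1 higher and 2 lower of 28 tested genes (median log2 fold change -0.04), and the other brakes 0 and 1 of 17 (0.03). The genes induced by ERK or repressed by CIC had 2 and 0 of 15 (0.34), and Cic and its partners 0 of 2. These 6, named after their values were seen, were Igf1r (0.54), Ksr1 (-0.72), Fgfr3 (-1.16), Errfi1 (-1.10), Etv1 (1.12) and Ccnd1 (0.85 on the log2 scale), with edgeR adjusted p from 0.541 to 0.591, and Etv1 is also a tumor marker. No gene of the 4 lists was called by edgeR or DESeq2 in any of the 3 sets of nuclei.

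The genes whose pattern lay closest to each member were sought over 54 sums of a class within a tumor, by Pearson's r of log2(CPM + 5) across sums, as a description. The sums come from 8 tumors and share libraries and depth. Spred2 lay closest to Ptpn9 (r = 0.972), Pde10a (0.967) and Shc3 (0.958), and Spred3 to Etv5 (0.953), Shc4 (0.950) and Ccnd2 (0.949). Shc3, Shc4 and Etv5 are among the 8 markers that named tumor-like nuclei. Spry4 lay closest to Ptpn9 (0.893), Lamc1 (0.890) and Gnb4 (0.886), Dusp6 to the cyclin gene Ccnd1 (0.863), Slc29a1 (0.789) and Etv1 (0.788), and Dusp4 to Mybl1 (0.850), Xpo1 (0.848) and Hsd17b12 (0.842). Spred1 lay closest to Fnbp1l (0.876), Mad1l1 (0.861) and Agap1 (0.849). Spry1 lay closest to Mylk (0.715), Myl9 (0.708) and Thy1 (0.706). Dusp5 and Spry2 had no close companion, with highest r of 0.644 (Osbp2) and 0.596 (Rtf1). Within the 9, the highest r was between Spred2 and Spred3 (0.922), followed by Spred3 and Spry4 (0.861), while r between Dusp5 and each other member lay between -0.295 and -0.0239.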

How the data were processed

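The authors counted reads with Cell Ranger and deposited, for each tumor, a filtered matrix of raw UMI counts by gene. Versions differ between sources: the file headers give 9.0.1 and the submitters' processing notes give 7.0.1, with bcl2fastq 2.20 and mm39, and the study's methods state that intronic reads were included. Each matrix was taken as 1 tumor, and tumor numbers are names only. Nuclei with under 200 genes or a posterior of at least 0.75 of being compromised by mitochondrial share were removed, as was the top Scrublet share (0.8% per 1000 nuclei, scanpy 1.11.5). Nuclei were clustered on 2000 variable genes, 30 components and 40 neighbors (Leiden resolution 1.0, igraph 0.11.9), without members, pathway genes and markers. A marker was raised at 1.5-fold over the 10th percentile of a tumor's clusters, a cluster was named for the class whose markers were raised most on average (log2 scale), and a name needed 3 raised ones, a scoring taken over from earlier work on these data, where it was set after clusters were seen. A cluster that shared 3 or more leading genes with larger clusters of another class was left unnamed, a rule set after the clusters were seen and before any test. Counts were summed per tumor and class with at least 50 nuclei and tested with edgeR 4.0.16 after its default filter and TMM scaling, with Benjamini-Hochberg adjustment over all genes. DESeq2 1.42.0, other scalings, filters, resolutions and left-out tumors were alternatives. The interaction fit held tumor as a term. Tests were tried on simulated counts first. Promoter windows, around canonical transcript starts, came from GENCODE M39, which held 19043 of the 19059 features. Named pathway genes were those with an unadjusted p under 0.05, at most 6 per list and comparison, and companions the 3 genes with the highest r. Members and lists were chosen with earlier results of these data known. No integration was done, and 0 columns of other samples were left out.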

Additional observations from a re-analysis of the deposited data

Results flagged for a closer look

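Of 54 groups of 4 tumors examined (9 genes, 2 groups, and all retained, tumor-like or fibroblast-like nuclei), 6 held a tumor whose gap to its nearest neighbor exceeded the critical value of Dixon's test for 4 values. Chance marks about 1 in 20 such groups. Over all retained nuclei, Spred2 was 444 CPM in untreated tumor 1 against 1112 to 1153 CPM in the other untreated tumors. In Minnelide tumor 2, Spred2 was 809 CPM against 1203 to 1258 CPM, Spred3 163 CPM against 259 to 273 CPM, and Dusp6 48.8 CPM against 116 to 128 CPM. Dusp6 was also high in untreated tumor 2, at 108.9 CPM against 78.7 to 82.7 CPM. In fibroblast-like nuclei Spry1 was 37.5 CPM in untreated tumor 1 against 13.1 to 14.9 CPM. Untreated tumor 1 and Minnelide tumor 2 held 36.7% and 50.6% myocyte-like nuclei. The part of that share in these values was not tested.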

How the results depend on the processing

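The labels give the tumors no replicate numbers. A shared barcode tag joins each untreated tumor to 1 Minnelide tumor, but tumors with the same tag cannot have shared a run. With the tag as a term, a fit chosen after seeing the data, edgeR called 0 genes in each of 3 comparisons and 1 direction of a member turned (Spry4 in tumor-like nuclei, 0.0594). edgeR called 0 genes in each of the 4 comparisons, and so did every other fit except these. DESeq2 called 181 genes over all retained nuclei, 109 in tumor-like nuclei, 59 in fibroblast-like nuclei and 23 in the difference between them. Leaving out 1 tumor gave 0 to 1 genes over all nuclei (1 without Minnelide 2) and 0 to 2 in fibroblast-like nuclei (2 without untreated 1), and leaving out both tumors rich in myocyte-like nuclei, chosen after seeing the data, gave 9 in fibroblast-like nuclei. Of 603 recomputed log2 fold changes of members, 26 reversed, in 11 of 36 results, and 1 call was gained (Dusp4 by DESeq2, difference between classes, -0.84). Leaving out 1 tumor reversed 9 of these, whose ranges were -0.15 to 0.45 (Dusp4) and -0.0271 to 0.42 (Spry4) over all nuclei, -0.38 to 0.17 (Dusp4), -0.0895 to 0.37 (Spred2) and -0.22 to 0.15 (Spry4) in tumor-like nuclei, -0.96 to 0.0289 (Dusp5) and -0.57 to 0.0372 (Spry1) in fibroblast-like nuclei, and -0.85 to 0.0752 (Dusp5) and -0.24 to 0.0459 (Spry1) in the difference. Without both myocyte-rich tumors, Spred2 was -0.0684 in tumor-like nuclei, Spry1 0.0806 in fibroblast-like nuclei, and Dusp5 0.14 and Spred1 0.0216 in the difference. Spry4 in tumor-like nuclei was also 0.0073 with DESeq2, 0.0072 with RLE factors, 0.0179 with no filter and 0.0022 at Leiden resolution 1.5, and -0.0040 in fibroblast-like nuclei under the stricter naming rule. That rule could not be fitted in tumor-like nuclei or for the difference. All 14 tumor-like clusters also raised at least 3 markers of a further class, so the rule left none of them. Causes were not tested. Depth limited Dusp5, with 25 to 551 UMIs per tumor in tumor-like nuclei.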
